A study of Mus musculus with 36 samples.

Results

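Pax5 is the paired domain transcription factor that commits progenitors to the B cell lineage. It binds enhancers and promoters of B cell genes such as Cd79a and Blnk, and it also represses genes of other blood lineages. The lysine that was changed lies outside the DNA-binding paired domain. An arginine in its place (K198R) keeps the positive charge and stands for the deacetylated lysine, whereas a glutamine (K198Q) stands for the acetylated one.

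The comparison covered the peak lists of Pax5 K198R and wild-type Pax5 (Pax5 WT) from chromatin immunoprecipitation with sequencing (ChIP-seq) with an antibody to Pax5. Every deposited peak of the 4 lists was used, 48631 peaks of 56338 in the 6 lists of the series, the other 7707 being those of Pax5 K198Q. The cells were Pax5-/- pro-B cells (Lin-, B220+, IgM-), which the labels give as bone marrow cells and the study's methods as progenitors from fetal liver, so that their tissue of origin is uncertain. Both groups lacked the endogenous factor and carried the form given by a retrovirus. They were expanded for 7 days with interleukin-7 (IL-7), stem cell factor and FLT3 ligand on inactivated OP9 stromal cells, and the labels of these samples give no age. By the study's methods, the Pax5-/- mice were kept on a C57BL/6 background. Each form had 2 replicates, biological ones by the study's description and made on different days. The libraries are named here as Pax5 WT 1 and 2 and Pax5 K198R 1 and 2, although every peak name in the second K198R list carries the number 3. RNA-seq of cells with the same forms, 2 libraries each, was read beside the peaks. The samples of the series include no ChIP-seq of cells with empty vector, so the background of each list is that of its own input library.

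Strong peaks were nearly all found with both forms, and the K198R lists were the longer ones. K198R gave 12158 and 13997 peaks against 10646 and 11830 with Pax5 WT. Of 19553 regions, 6118 held a peak in all 4 lists, among them the promoters of Igll1, Cd79a and Cd22. No region of these differed in fold enrichment between the forms past the test, and the regions with a peak in both lists of 1 form alone were weak. Their numbers, 1167 for K198R and 489 for Pax5 WT, became 694 and 663 when every list was held to the same number of peaks and 980 and 449 at a −log10 q of at least 5 in every list.

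The strongest regions shared by all 4 lists are shown first, because 3 of the 5 strongest held the Pax5 core motif beside the summit. Each sequence is a short window centred on the highest summit, read from the plus strand of GRCm38, which is the build mm10 of the peak lists. Capitals mark the letters GCNTGAC of the core on either strand, where GTCACGC is the minus-strand reading.
Akap2, chr4:57681718-57681818: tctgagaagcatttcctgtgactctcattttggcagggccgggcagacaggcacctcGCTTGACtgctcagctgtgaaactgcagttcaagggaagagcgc
Pabpc1, chr15:36609212-36609312: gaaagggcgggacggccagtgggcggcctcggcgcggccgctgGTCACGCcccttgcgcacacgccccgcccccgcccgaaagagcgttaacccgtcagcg
Padi2, chr4:140944588-140944688: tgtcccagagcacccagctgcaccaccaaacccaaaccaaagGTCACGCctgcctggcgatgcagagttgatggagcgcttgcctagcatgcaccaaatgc
The Akap2 window lay in an intron, at -35889 bp from the nearest annotated start of Akap2, where a minus sign means before the start (chr4:57681495-57682176 for the whole region). The Pabpc1 window lay at -289 bp from the start of that gene, which encodes the cytoplasmic poly(A)-binding protein. The Padi2 window lay in an intron, at -1774 bp from the nearest start of that peptidyl arginine deiminase gene.

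The strongest regions with a peak in both K198R lists and in neither wild-type list are shown for contrast, with the same window. They lay in an intron of Stk3, which encodes a kinase of the Hippo pathway, and in an intron of Fam53b.
Stk3, chr15:35075012-35075112: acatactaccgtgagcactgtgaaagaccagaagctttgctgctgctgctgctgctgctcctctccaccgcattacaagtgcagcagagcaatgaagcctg
Fam53b, chr7:132736661-132736761: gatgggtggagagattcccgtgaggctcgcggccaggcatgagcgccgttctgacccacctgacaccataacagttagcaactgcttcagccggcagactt
Those with a peak in both wild-type lists and in neither K198R list lay 32096 bp from the nearest start, of 4932435O22Rik, and at -829 bp from the start of Gm266. The strongest region of this class, at the start of Gsdme, which encodes gasdermin E, is given by position only (chr6:50261530-50261888).
4932435O22Rik, chr11:114391741-114391841: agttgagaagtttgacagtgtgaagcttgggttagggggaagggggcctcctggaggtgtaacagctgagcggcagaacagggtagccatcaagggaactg
Gm266, chr12:111486602-111486702: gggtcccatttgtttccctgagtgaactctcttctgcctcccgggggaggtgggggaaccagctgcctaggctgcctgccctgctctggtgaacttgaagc
None of these 4 windows held the 7 letters of the core motif, which says only that these letters are not in the window.

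The 4 lists were alike in the height and shape of their peaks. Fold enrichment, the ratio of ChIP to input signal at the summit, had a median of 5.69 and 5.68 with Pax5 WT and of 5.70 and 5.83 with K198R. The highest peak of a list reached 43.4 and 45.7 with Pax5 WT and 36.9 and 47.5 with K198R, so that K198R held both the lowest and the highest of the 4 maxima. Peaks had a median length of 313 to 318 bp in every list, and a median −log10 q, the caller's measure of confidence, of 8.71 to 9.14. The number of peaks with a fold enrichment of at least 10 was 1362 and 1464 with Pax5 WT and 1337 and 1960 with K198R, so that the K198R lists held both the fewest and the most. Peaks covered 3825 and 4245 kb of the genome with Pax5 WT and 4406 and 5159 kb with K198R. The study gives nearly the same number of clean reads for each of these libraries and their inputs. The lists carry no read counts, so that the number of reads left after filtering is not known here, and intervals on shares of peaks cover counting error only.

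The share of peaks in common was taken for each list against each of the others. Of the peaks of K198R 1, 76.9% overlapped a peak of K198R 2 by at least 1 bp (95% exact binomial interval 76.1 to 77.7), 62.7% a peak of WT 1 and 67.9% a peak of WT 2. Of the peaks of K198R 2, 66.6% overlapped a peak of K198R 1, 59.3% a peak of WT 1 and 63.8% a peak of WT 2. Read the other way, wild-type peaks were found more often in K198R 2 than in the other wild-type list, whereas K198R 1 held more of the peaks of WT 2 and fewer of those of WT 1 than the other wild-type list did. Of the peaks of WT 1, 74.3% overlapped WT 2, 71.9% K198R 1 and 78.1% K198R 2. Of the peaks of WT 2, 66.8% overlapped WT 1, 69.9% K198R 1 and 75.5% K198R 2. These shares depend on the length of the list that is searched, and both K198R lists were longer than both wild-type lists.

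With the 10000 peaks of highest −log10 q taken from each list, the shares within a form lay above those between forms in every list. They were 71.4% and 71.1% between the K198R replicates and 70.2% and 70.1% between the wild-type replicates. Between forms the 8 shares ran from 66.5% to 69.4%. An exact permutation test of 2 lists against 2 cannot go below p = 0.33, so that none was run on these shares. The lowest −log10 q kept was 5.05 and 5.9 for K198R 1 and 2 and 3.42 and 4.6 for WT 1 and 2, so the equal lists reached less deep into the K198R data.

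Replicated peaks, those overlapped by the other replicate of the form, were mostly peaks of the other form as well. Among the replicated K198R peaks, 9350 in replicate 1 and 9324 in replicate 2, 86.8% and 87% overlapped a wild-type peak of either list. Among the unreplicated K198R peaks the share was 42.1% and 45.2%. Replicated wild-type peaks, 7914 and 7900, overlapped a K198R peak in 93.5% of cases in both replicates, and unreplicated ones in 59.1% and 61.8%. Replicated peaks were the higher ones in each list, with a median fold enrichment of 6.18 and 6.71 in K198R and 6.22 and 6.43 in WT, against 4.77 to 5.01 for unreplicated peaks.

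When overlapping peaks of the 4 lists were merged, 19553 regions resulted. A peak of all 4 lists was found in 6118 regions (31.3%), of 3 lists in 2987 (15.3%) and of 1 list in 6807 (34.8%). Both K198R lists held a peak in 9133 regions, and 7966 of these had a wild-type peak too. Both wild-type lists held a peak in 7746, and 7257 of these had a K198R peak. The 1167 regions with both K198R lists and neither wild-type list, called K198R-pair regions below, made up 5.97% of all regions, and the 489 WT-pair regions 2.5%.

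**Figure D1:**
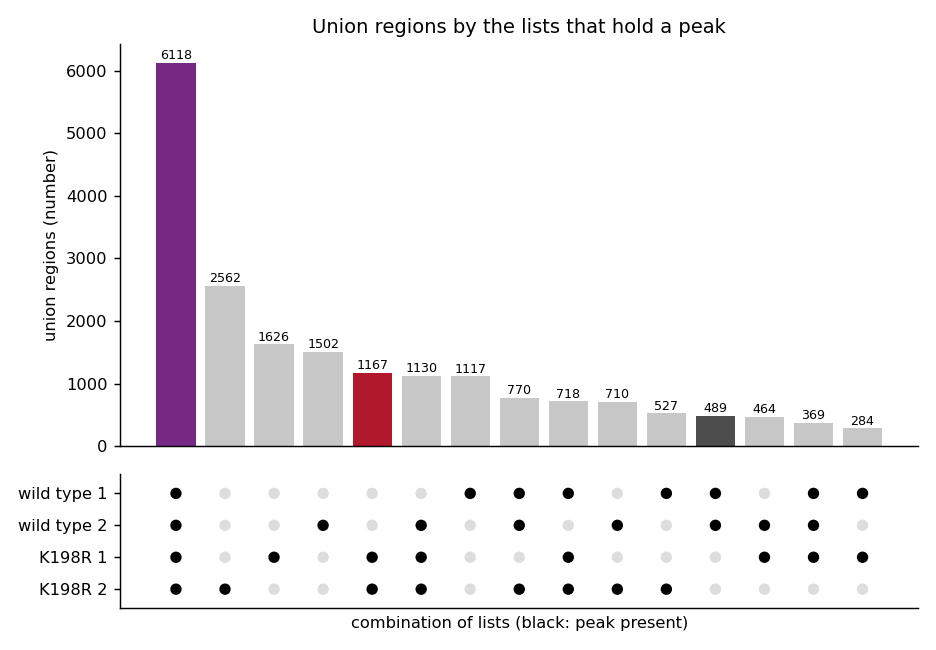
Number of merged regions (vertical axis) for each combination of the 4 peak lists (columns, a black dot marks a list with a peak in the region). Regions with a peak in all 4 lists (purple, 6118) were the most frequent combination, followed by peaks of K198R 2 alone (2562), and K198R-pair regions (red) numbered 1167 against 489 WT-pair regions (dark grey).

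Pairs of lists that join 1 replicate of each form serve as a reference for these numbers. WT 1 with K198R 1 gave 284 regions, WT 2 with K198R 1 gave 464, WT 1 with K198R 2 gave 527 and WT 2 with K198R 2 gave 710. The WT-pair regions thus lay within the range of the mixed pairs, and the K198R-pair regions above it. Mixed pairs with the longer list of a form gave more regions than those with its shorter list, and K198R 2, the longest list, also held the most regions found in no other list, 2562, against 1626 in K198R 1, 1502 in WT 2 and 1117 in WT 1.

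The counts were also taken with all lists held to one length and with one q-value limit. With 10000 peaks per list, K198R-pair regions numbered 694 and WT-pair regions 663, a ratio of 1.05 in place of 2.39. Equal length draws the counts of the forms together, because it drops more of the longer K198R lists. With a −log10 q of at least 5 in every list they were 980 and 449, a ratio of 2.18, so that the excess of K198R-pair regions was present at a common limit of confidence and not at a common length. With 10000 peaks per list the mixed pairs gave 377, 446, 418 and 438 regions, in the order above. At this length both same-form pairs thus exceeded every mixed pair, and they did so by nearly the same number. Regions with a peak in all 4 of these shortened lists numbered 4998. With 1 list left out, a form with a single list needs only 1 peak to count, so that its number rises by construction and the ratio of the forms cannot be read from it. Without WT 1 there were 1891 regions of both K198R lists and not WT 2, and 2013 of WT 2 alone, and without K198R 1 there were 3775 for K198R and 864 for Pax5 WT. When K198R 2, the list with the other number in its peak names, was left out, it was 2857 against 1265, and without WT 2 it was 2303 against 1629.

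K198R-pair and WT-pair regions were weak and similar to each other. Median fold enrichment was 5.07 and 5.25 in the 2 lists of K198R-pair regions and 5.07 and 5.21 in those of WT-pair regions, against 6.81, 7.09, 7.03 and 7.82 (WT 1, WT 2, K198R 1, K198R 2) in regions of all 4 lists. The lower of the 2 values reached 8 in 15 of 1167 K198R-pair regions and in 6 of 489 WT-pair regions, whereas the lowest of 4 values reached 8 in 981 of the 6118 shared regions. A peak of the other form lay within 1000 bp in 176 K198R-pair regions (15.1%) and in 65 WT-pair regions (13.3%), and more than 10 kb away in 676 and 306. The strongest K198R-pair region, in Stk3 (chr15:35074901-35075290), had 13.3 in K198R 1 and 10.3 in K198R 2. That of Fam53b (chr7:132736524-132736868) had 10.2 and 12.7. The strongest WT-pair region, at Gsdme, had 11.3 in WT 1 and 12.1 in WT 2. At the promoter of Fundc1 (chrX:17571619-17572157), which encodes a mitophagy receptor, the 2 wild-type lists had 9.25 and 8.52 and no K198R peak was called. Absence of a peak means that the caller's threshold was not passed, and the signal in such a region has no value in these lists.

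How often a peak was found again depended on its height in the same way in each form. In the lowest decile of K198R 1 (fold enrichment 2.12 to 3.83), 63.4% of the peaks were overlapped in K198R 2, 46.1% in WT 1 and 54.2% in WT 2. In its highest decile (10.3 to 36.9) the shares were 99.7%, 97.9% and 98.1%. In K198R 2 the lowest decile gave 49.3% in K198R 1, 39.6% in WT 1 and 45.9% in WT 2, and the highest 99.5%, 98.4% and 98.5%. The wild-type lists behaved alike, with 61.1% of the lowest and 99.9% of the highest decile of WT 1 found in WT 2. The strong sites were thus nearly the same set with either form, and the lists differed among their weak peaks, between replicates as well as between forms.

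**Figure D2:**
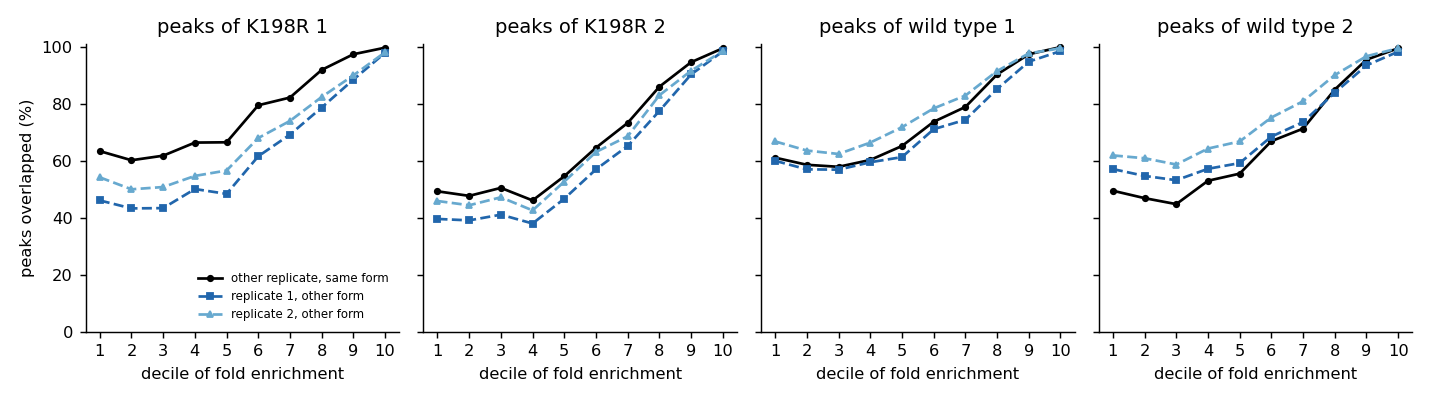
Share of the peaks of each list (panels) that overlap a peak of the other replicate (black), or of replicate 1 (dark blue) or 2 (light blue) of the other form, by decile of fold enrichment from lowest (1) to highest (10). In the highest decile every share was at least 97.9%, and in the lowest decile the shares lay between 39.6% and 66.8%.

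Within the 6118 shared regions the height of the peaks could be compared. Of the 3 strongest, whose sequences are shown above, the forms overlapped in Akap2 and Pabpc1 and not in Padi2. The Akap2 region had 37.1 and 45.7 with Pax5 WT and 36.9 and 44.1 with K198R. The Pabpc1 promoter (chr15:36608942-36610021) had 37.5 and 40.2 with Pax5 WT and 31.7 and 39.4 with K198R. The Padi2 region (chr4:140944253-140945505) had 40.8 and 34.2 with Pax5 WT and 32.1 and 29 with K198R, so that here both wild-type values were the higher ones. None of the 3 passed limma's test, with adjusted p from 0.905 to 0.998.

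Over all shared regions, fold enrichment with K198R was a median of 0.07 higher on the log2 scale, mean of 2 lists against mean of 2 lists. The medians of the lists themselves were 2.767 and 2.825 for WT 1 and 2 and 2.813 and 2.968 for K198R 1 and 2, a difference of 0.095 between the forms with a pooled SD of 0.082 (n = 2 lists per form, exact permutation test, two-sided p = 0.67, where 0.33 is the smallest possible). The values of K198R 2 were the highest. That list was a median of 0.168 above its own replicate, 0.185 above WT 1 and 0.143 above WT 2, whereas K198R 1 was 0.003 above WT 1 and differed from WT 2 by -0.026. The spread of regions around these medians was similar between replicates (SD 0.567 for WT and 0.59 for K198R) and between forms (0.585 to 0.627). Across regions, which are not replicates and share their input library within a list, Pearson's r of log2 fold enrichment was 0.63 between the wild-type lists, 0.57 between the K198R lists and 0.51 to 0.61 between forms. Summits lay a median of 32 to 34 bp apart in every pair of lists, whether of 1 form or of both.

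**Figure D3:**
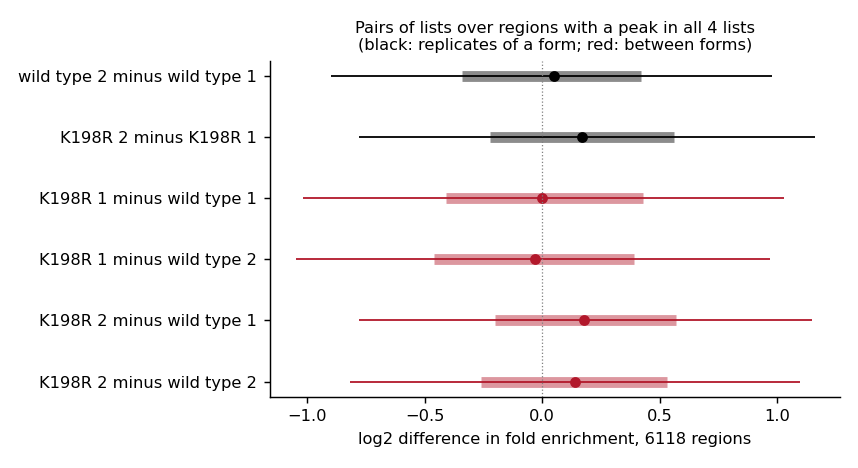
Log2 difference in fold enrichment (horizontal axis) over the 6118 regions with a peak in all 4 lists, for each pair of lists; the point is the median, the thick bar the middle 50% and the thin line the 5th to 95th percentile of regions. The medians of the replicate pairs (black) were 0.05 and 0.17, and those between forms (red) ran from -0.03 to 0.18, with the 2 pairs that hold K198R 2 at the upper end.

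No shared region passed the test between forms. With limma and Benjamini-Hochberg adjustment, 0 of 6118 regions (0%) were called higher and 0 (0%) lower with K198R, and the smallest adjusted p was 0.501. At an unadjusted p under 0.05 there were 279 higher and 131 lower regions. The median standard error of a region was 0.41 on the log2 scale, so that differences of the size of most regions were not detectable with 2 lists per form. Both K198R values lay above both wild-type values in 1389 regions (22.7%), and both wild-type values above both K198R values in 877 (14.3%). After each list was centred on its own median these became 1093 (17.9%) and 1193 (19.5%). Centring takes out any shift of a whole list, also one that both K198R lists share.

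The regions with the largest differences are given as values, since none was called and they were picked after their values were seen. Of the 5 largest differences toward K198R, 4 are given. The largest was an intergenic region (chr10:116746462-116747103) with 4.81 and 5.13 for Pax5 WT and 12.9 and 21.5 for K198R, a log2 difference of 1.74 ± 0.42 (SE, limma, adjusted p = 0.501). In an intron of Tcf3 (chr10:80429625-80430374), which encodes the E protein E2A, fold enrichment was 5.02 and 6.91 with Pax5 WT and 19 and 16 with K198R, a log2 difference of 1.57 ± 0.42 (SE, n = 2 lists per form, limma, adjusted p = 0.636). Both K198R values were above both wild-type values by more than the gap within either form. At the promoter of Ctcf (chr8:105636034-105636895), the gene of the insulator protein, the values were 5.02 and 2.69 with Pax5 WT and 12.2 and 11.4 with K198R. For the Clasrp promoter (chr7:19604215-19604674) they were 2.97 and 3.99 against 11.4 and 10.2. In the opposite direction the largest were in Foxk1 and Kit. An intron of Kit (chr5:75604364-75604951), the stem cell factor receptor, had 16.5 and 19.3 with Pax5 WT and 4.02 and 10.9 with K198R, a log2 difference of -1.44 ± 0.45 (SE, limma, adjusted p = 0.656). An intron of Foxk1 had 18.2 and 16.1 with Pax5 WT and 4.98 and 7.73 with K198R. In Kit and Foxk1 the forms did not overlap either, with the 2 wild-type values close together.

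The share of peaks at promoters varied between replicates by more than between forms. Summits within 1000 bp of an annotated transcript start made up 51.3% and 53.6% of the peaks of WT 1 and 2 and 55.1% and 50.8% of those of K198R 1 and 2. The difference of 0.51 percentage points between the forms was below the pooled SD of 2.43 (n = 2 lists per form, exact permutation test, two-sided p = 1, where 0.33 is the smallest possible). Among replicated peaks alone the difference was 1.23 points with a pooled SD of 0.12, the K198R lists having the higher share. Replicated peaks of the 2 lists of a form overlap each other by definition, so this SD does not measure the spread between replicates. Of the regions in all 4 lists, 57% were at such promoters (95% interval 55.8 to 58.3), of the K198R-pair regions 44.9% (42 to 47.8) and of the WT-pair regions 36% (31.7 to 40.4). The share went with the replicates as well. Regions of WT 2 with K198R 1 alone were at promoters in 64.7% of cases and those of WT 1 with K198R 2 alone in 37.6%, and among regions of a single list the share was 48.8% for K198R 1, 42.3% for WT 2, 39.4% for K198R 2 and 36.3% for WT 1.

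The Pax5 core motif was sought as GCNTGAC on both strands within 100 bp of each summit. It was present in 15.9% and 15.2% of the peaks of WT 1 and 2 and in 14.5% and 14.7% of those of K198R 1 and 2. The difference of -0.98 percentage points was larger than the pooled SD of 0.39, and p = 0.33 in the exact two-sided permutation test is the smallest that 2 lists against 2 can give. Windows of the same length held these letters in 5.03% of cases across the genome and in 7.05% at annotated starts of protein-coding genes. The latter are the promoter windows below, whereas summits were classed as promoter by starts of genes of any type. The share rose with peak height in each list, in WT 1 from 12.1% in the lowest decile to 21.6% in the highest and in WT 2 from 12.2% to 24%. It was 17.9% in regions of all 4 lists (95% interval 16.9 to 18.8), 12.5% in K198R-pair regions (10.7 to 14.5) and 12.1% in WT-pair regions (9.31 to 15.3). The difference between the forms was -0.76 points (pooled SD 0.08) among replicated peaks, -0.90 (0.29) within 50 bp of the summit and -0.51 (0.40) with 10000 peaks per list. The SD among replicated peaks is small by construction, because these peaks overlap between the 2 lists of a form.

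**Figure D4:**
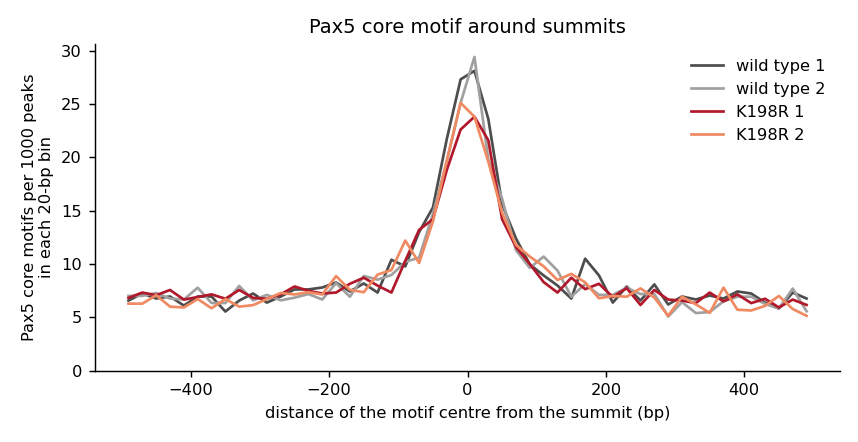
Number of Pax5 core motifs per 1000 peaks in each 20-bp bin (vertical axis) by distance of the motif's centre from the summit in bp (horizontal axis), for the 4 lists. All 4 lists peaked within 20 bp of the summit, at 22.6 to 25.1 per 1000 peaks in the K198R lists and 25.1 to 29.4 in the wild-type lists.

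Motifs of factors that act beside Pax5 in B cell progenitors were sought in the same windows. The FLI1-like ETS motif CCGGAAGT was in 3.13% and 3.22% of the peaks of WT 1 and 2 and in 3.65% and 3.27% of those of K198R 1 and 2, against 0.122% of genome windows and 3.55% of promoter windows. It was in 3% of K198R-pair regions (95% interval 2.1 to 4.15) and 1.64% of WT-pair regions (0.709 to 3.2). The PU.1-like ETS motif GAGGAAGT was in 3.99% and 3.91% of wild-type and 3.84% and 3.8% of K198R peaks, against 1.15% of genome and 1.96% of promoter windows. The EBF1-like motif CCCNNGGG was in 17.3% to 17.7% of the peaks of every list, and the E-box CAGGTG of E2A in 17.2% to 18%, against 3.15% and 11.9% of genome windows and 10.4% and 15.6% of promoter windows. The RUNX-like motif TGTGGT was in 18.3% and 18.2% of wild-type and 16.6% and 18% of K198R peaks, against 13.8% of genome and 10.8% of promoter windows. It was in 17.3% of K198R-pair regions (15.2 to 19.6) and 25.8% of WT-pair regions (21.9 to 29.9). RUNX-like letters were rarer at promoters, and away from promoters the shares were 24.3% (21 to 27.8) and 33.2% (28 to 38.7). The intervals here cover counting error only, and no test over lists was made for the single classes.

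Genes were then taken from 7 lists: B lineage factors, pre-B cell receptor (pre-BCR) and B cell receptor (BCR) components, the V(D)J recombination machinery, genes of other lineages, IL-7 signalling and growth, glucose and energy, and 6 other genes that the study names. A region was assigned to a gene if its highest summit lay in the gene or up to 5000 bp before its start. Of 85 genes, 72 had a region, 62 a region with both K198R lists, 52 a region with both wild-type lists and 49 a region of all 4 lists. Of their 225 regions, 81 (36%) were in all 4 lists, against 31.3% of all 19553 regions. K198R-pair regions numbered 18 (8%, against 5.97%), WT-pair regions 5 (2.22%, against 2.5%) and regions of 1 list 66 (29.3%, against 34.8%).

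Among B lineage factors all 15 genes had a region and 13 had 1 in all 4 lists. In an intron of Ebf1 (chr11:44950321-44950745), the factor that acts before and with Pax5, fold enrichment was 13.1 and 15.6 with Pax5 WT and 11.7 and 14.1 with K198R. In an intron of Irf8 (chr8:120747141-120747777) it was 10 and 17.3 against 15.6 and 16. For Pou2af1, which encodes the octamer coactivator OBF-1, the promoter had 13.6 and 10.7 against 6.11 and 14.9. In these 3 regions the forms overlapped. A second region of Irf8, at its promoter (chr8:120745796-120746595), had 6.29 and 8.37 with Pax5 WT and 13.2 and 15.5 with K198R, which did not overlap and did not pass the test (log2 difference 0.98, limma, adjusted p = 0.706). A promoter region of Bach2 (chr4:32238308-32238982), a transcriptional repressor of B cells, had 8.14 and 9.31 with Pax5 WT and 5.87 and 4.56 with K198R. A promoter region of Id3 (chr4:136144421-136145071), an inhibitor of E proteins, had 7.35 and 6.2 against 8.49 and 16.9. In these 2 regions the forms did not overlap, in opposite directions, and neither passed the test (limma, adjusted p = 0.764 and 0.757). Each promoter held a second region of all 4 lists, in which the forms overlapped. That of Bach2 (chr4:32239150-32240330) had 2.52 and 7.27 with Pax5 WT and 6.94 and 4.76 with K198R. That of Id3 (chr4:136143584-136144211) had 6.08 and 4.49 against 4.45 and 6.74. The other 2 of the 15 genes were Foxo1 and Ikzf1, which had K198R-pair regions but no region of both wild-type lists. The Foxo1 promoter (chr3:52268232-52268720) had 6.04 and 5.15 in K198R 1 and 2, and the Ikzf1 intron (chr11:11690056-11690547) had 3.36 and 4.74. Lef1, which had 2 regions of all 4 lists, had a K198R-pair region in an intron (chr3:131208424-131208844) with 5.54 and 8.78. Bach2 had 2 K198R-pair regions in introns, with 5.33 and 5.25 (chr4:32249090-32249420) and with 4.9 and 4.67 (chr4:32291513-32291848). Spib had 1 in an exon (chr7:44527518-44527795), with 4.35 and 4.74.

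Pre-BCR and BCR genes held several of the strongest regions among the 7 lists. Of 16 genes, 15 had a region (Cd81 had none) and 13 had 1 in all 4 lists. At the promoter of Igll1 (chr16:16863667-16864429), the surrogate light chain gene lambda 5, fold enrichment was 33.4 and 20.5 with Pax5 WT and 29.2 and 28.6 with K198R. At the start of Cd79a (chr7:24897147-24897699), which encodes the signalling chain Ig-alpha, it was 12.3 and 24.8 against 12.6 and 30.9, with the second replicate higher in each form. In both regions the forms overlapped. A second region of Cd79a (chr7:24896233-24896642) had 10.5 and 8.46 in K198R 1 and 2 and 4.82 in WT 2, with no peak in WT 1. In an intron of Blnk (chr19:40962952-40963428), the adaptor that links the pre-BCR to its kinases, it was 18.2 and 26.5 against 20.4 and 23.1. Blnk had 4 regions of all 4 lists. The forms overlapped in this one and at the promoter, and both K198R values were the higher ones in the other two, with 10.7 and 5.91 against 11.9 and 15.2 upstream (chr19:40995618-40996559) and 7.3 and 7.17 against 8.52 and 12 in an intron (chr19:40970253-40970950). None of them passed the test (limma, adjusted p from 0.793 to 0.998). At the promoter of Cd22 (chr7:30878925-30879392), an inhibitory receptor, it was 23.6 and 24.5 against 17.4 and 18.6. For Cd22 both wild-type values were the higher ones, at a log2 difference of -0.42 ± 0.38 (SE, limma, adjusted p = 0.879). The kinase genes Syk, Btk and Lyn, and Pik3ap1, also had regions of all 4 lists, with values between 3.93 and 14. Cd79b (chr11:106314457-106314796) had 8.54 and 8.94 with Pax5 WT and 6.1 in K198R 1, with no peak in K198R 2. Regions of Vpreb1 and Vpreb2, near-identical copies, are uncertain because reads that fit both may have been lost or misplaced.

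The V(D)J recombination genes Rag1, Rag2 and Dntt each had at least 1 region of all 4 lists. Rag1 had 5 regions, 2 of them in all 4 lists and 1 a WT-pair region, and its strongest shared region is given. At the Rag1 promoter (chr2:101648181-101648969) fold enrichment was 13.9 and 9.19 with Pax5 WT and 6.15 and 16 with K198R, and at the Rag2 promoter (chr2:101624484-101624920) 13.8 and 10.1 against 9.59 and 11.1. In an intron of Dntt, the gene of terminal transferase, it was 6.62 and 8.24 against 7.67 and 16.5. The forms overlapped in these 3 regions.

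**Figure D5:**
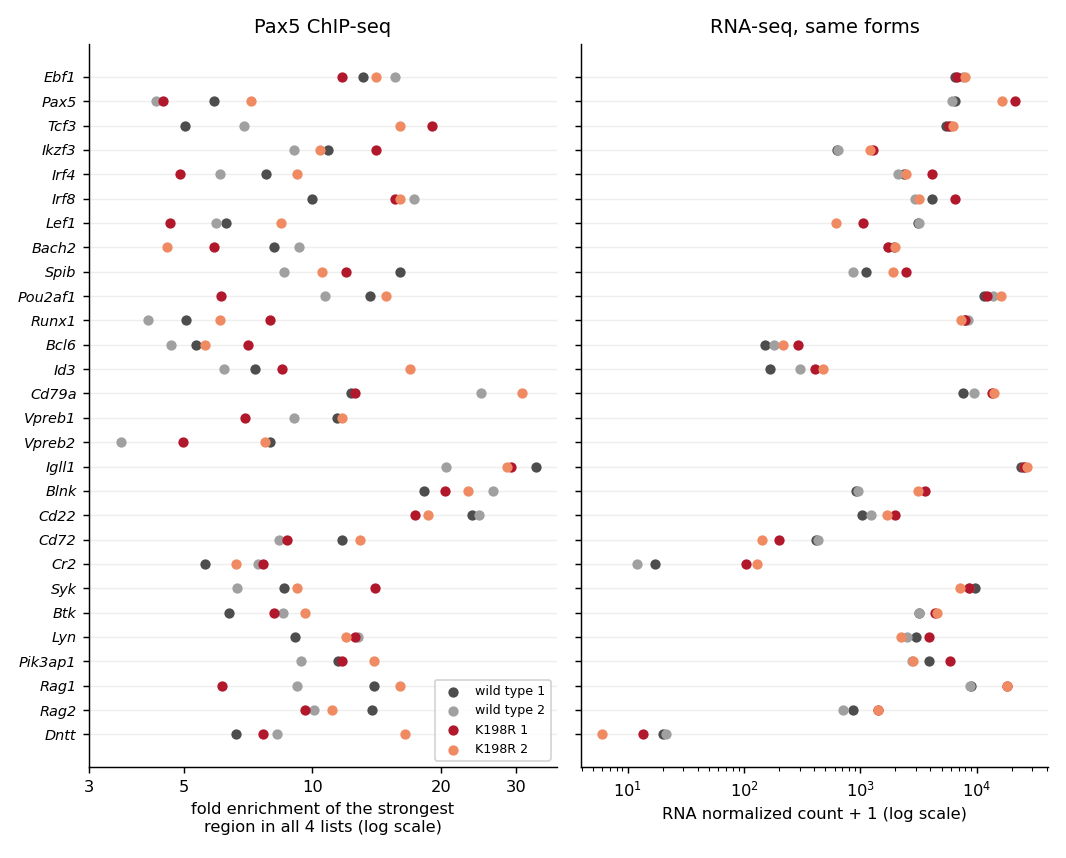
Fold enrichment of the strongest region of all 4 lists (left, log scale) and RNA-seq normalized count + 1 in cells with the same form (right, log scale) for genes of the B lineage, pre-BCR and V(D)J lists that had such a region, each point being 1 library. K198R (red, orange) and Pax5 WT (greys) intermingled at the strongest region of Blnk in ChIP-seq, and the RNA values of Blnk with K198R lay above those with Pax5 WT.

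The genes of other lineages include many that Pax5 is known to repress in B cells. Of 20, 12 had a region and 8 had 1 in all 4 lists, whereas Csf1r, Gata3, Il2rb, Nkg7, Cd3e, Cd28, Itgb7 and Ly6a had none. In an intron of Grap2 (chr15:80634669-80635275), an adaptor of T cell receptor signalling, fold enrichment was 19.8 and 16.7 with Pax5 WT and 11.5 and 9.67 with K198R, which did not overlap and did not pass the test (limma, adjusted p = 0.75). Upstream of Lck (chr4:129575208-129575591), a T cell kinase, it was 6.94 and 7.18 against 7.77 and 11.9. For the Zap70 promoter it was 6.51 and 6.23 against 8.37 and 8.88. At Lck and Zap70 both K198R values were the higher ones (adjusted p = 0.883 for each, limma). In an exon near Tcf7, which encodes the T cell factor TCF-1, it was 8.25 and 13 against 8.71 and 13. Flt3, Notch1, Grap2 and Csf1 each had 1 K198R-pair region, with values between 3.54 and 7.3, and Grap2 also had 1 WT-pair region. The Csf1 promoter (chr3:107759970-107760765) had 4.55 and 5.72 in K198R 1 and 2.

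Among 17 genes of IL-7 signalling and growth, 15 had a region and 9 had 1 in all 4 lists. The promoter of Myc, a driver of cell growth, had 4.94 and 4.25 with Pax5 WT and 4.35 and 7.41 with K198R, and that of Klf6 had 5.24 and 8.33 against 6.76 and 9.63. In both regions the forms overlapped. They did not at a second promoter region of Myc (chr15:61986902-61987219), with 3.65 and 5.06 against 6.1 and 7.41, nor at the promoter of its relative Mycn (chr12:12941569-12942035), with 5.36 and 6.06 against 6.93 and 9.49. K198R was higher in both, and neither passed the test (limma, adjusted p = 0.805 and 0.856). Il7r and Il2rg, the receptor chains, had none. Cdk4, Rb1 and Cdkn1b, which act at the G1 to S transition, had K198R-pair regions at their promoters, with 4.69 and 4.01 for Cdk4, 3.62 and 5.59 for Rb1 and 3.67 and 4.23 for Cdkn1b. All 6 of these values lay below the median of their list. Ccnd3, which encodes cyclin D3, had 9 regions, 3 in all 4 lists, 1 K198R-pair and 2 WT-pair regions. Of the 8 glucose and energy genes 6 had a region, 5 with both K198R lists and 2 with both wild-type lists. The Cox20 promoter, of an assembly factor of cytochrome oxidase, was a K198R-pair region with 4.3 and 5.12.

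Over the 81 regions of list genes that were in all 4 lists, 53 had a higher and 28 a lower mean with K198R, and 0 were called. The median log2 difference was 0.18 against 0.07 over all 6118 regions, with 65.4% against 56.4% higher. Without K198R 2 the median of the 81 fell to 0.04 (43 higher, and 49.7% of all regions higher), and without K198R 1 it was 0.29 (58 higher, and 63.3% of all regions higher). The size of this difference thus depended on which K198R list was used.

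RNA-seq of cells with the same forms gave the level of Pax5 transcript, in which message from the targeted locus and from the retrovirus are not separated. It was at 2201 and 2103 normalized counts with empty vector, 6458 and 6152 with Pax5 WT and 21162 and 16610 with K198R, a log2 difference between the forms of 1.57 ± 0.12 (SE, limma, adjusted p = 0.0029, n = 2 libraries per form). Without K198R 1 it was 1.40, below the fold that the call required. The amount of Pax5 message and the form of the protein moved together, and their parts in the peak lists cannot be told apart. Of 13345 genes tested, 38 (0.285%) were called higher and 175 (1.31%) lower with K198R at an adjusted p under 0.05 and a log2 difference of at least 1.5. These counts changed when 1 library was left out, which leaves an arm with a lone library that is assumed to vary like the others, with 9 higher and 12 lower without WT 2, 17 and 40 without WT 1, 32 and 84 without K198R 2, and 32 and 323 without K198R 1. Over the same omissions the log2 difference ranged from 1.74 to 1.94 for Blnk, from -2.37 to -1.60 for Lef1 and from 2.24 to 3.06 for Bcar3.

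Genes with a shared strong region near them included some with more transcript under K198R, although the region itself had not passed the test. Blnk had 915 and 954 normalized counts with Pax5 WT and 3586 and 3133 with K198R and was called higher (1.84 ± 0.27, limma, adjusted p = 0.015), a call lost without K198R 2 (adjusted p = 0.0511) and without either wild-type library. Rag1 had 8938 and 8704 against 18291 and 18398, with 1.06 ± 0.20 and an adjusted p of 0.0366 (limma), below the fold threshold. In Blnk and Rag1 both K198R libraries lay above both wild-type libraries. Igll1, with the highest promoter peak of these genes, had 23881 and 25754 against 25624 and 27194 (0.09 ± 0.14, limma, adjusted p = 0.93).

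Lef1, a transcription factor of lymphoid progenitors, was called lower with K198R, with 3114 and 3196 normalized counts against 1042 and 611 (-1.98 ± 0.25, limma, adjusted p = 0.0102), a call lost without either wild-type library. Tcf7 was called lower as well, with 246 and 284 against 71.9 and 51.4 (-2.10 ± 0.31, limma, adjusted p = 0.0156), a call lost without K198R 2 or either wild-type library. Thy1, a surface marker of T cells with a peak in WT 2 alone, was called lower, with 59 and 92.5 against 8.1 and 8.1 (-3.04 ± 0.39, limma, adjusted p = 0.0105), a call lost without WT 2. In all 3 genes the libraries of the forms did not overlap. With empty vector the counts were 1092 and 830 for Lef1, 38.9 and 67.4 for Tcf7 and 23.8 and 31.5 for Thy1. In each gene both empty-vector libraries thus lay below both Pax5 WT libraries. The difference between K198R and empty vector was not tested.

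By list, 1 of 15 B lineage factors was called higher (Pax5) and 1 lower (Lef1), 1 of 14 tested pre-BCR and BCR genes higher (Blnk), and 2 of 19 tested genes of other lineages lower (Tcf7 and Thy1). Bcar3 and Cd55 were called higher among the 6 other genes that the study names, and the call of Cd55 was lost when any 1 of the 4 libraries was left out (limma, adjusted p from 0.058 to 0.209). None of the 3 V(D)J, 17 IL-7 and growth and 8 glucose and energy genes was called in either direction. The median log2 difference was 0.39 for B lineage factors, 0.43 for pre-BCR and BCR genes, 0.85 for V(D)J genes and -0.32 for genes of other lineages, against 0.01 over all genes tested. The log2 differences of the 3 V(D)J genes were not of 1 sign. Rag2, a subunit of the recombinase, was at 861.5 and 708.8 normalized counts with Pax5 WT and 1404.7 and 1413.4 with K198R, whereas Dntt, which adds nucleotides at the joins, was at 19 and 20.3 against 12.5 and 5 (-1.20 ± 0.66, SE, limma, adjusted p = 0.554). In bulk libraries fewer cells of a type and less RNA per cell cannot be told apart. Markers of pro-B cells were present in all libraries, Ebf1 among them with 6469 to 7875 normalized counts in the 4 libraries, whereas the defining markers Cd3e, Ncr1 and Elane were at 0 or 1. Other genes of those marker lists were present. The T cell list summed to 2845 and 3388 normalized counts with Pax5 WT and 2039 and 2676 with K198R, mostly Lck. The NK cell list summed to 233 and 262 against 141 and 91.3, mostly Nkg7, and the myeloid list to 483 and 464 against 655 and 408, mostly Itgam. The 6 stromal markers summed to 754 and 2025 normalized counts with Pax5 WT and 909 and 1041 with K198R, with Cxcl12 the most abundant and Dcn and Lum at 0, and their part in the results was not tested.

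Over all genes tested, 0.285% were called higher and 1.31% lower in RNA. Of 511 genes tested with a K198R-pair region at a start, 2 (0.391%) were called higher and 4 (0.783%) lower, with a median log2 difference of 0.04. Of 165 genes with a WT-pair region, 1 (0.606%) was called higher and 4 (2.42%) lower (median 0.05). Of 3409 genes with a region of all 4 lists, 8 (0.235%) were called higher and 17 (0.499%) lower (median 0.04). Of the 5631 genes without a region at a start, 19 (0.337%) were called higher and 121 (2.15%) lower (median -0.04). These make up 121 of the 175 genes called lower and 19 of the 38 called higher. Genes without a region at a start had a median log2 level of 7.24, against 10.59 for genes with a region of all 4 lists. Their log2 differences also spread more widely, with lower and upper quartiles of -0.37 and 0.15 against -0.08 and 0.14. The classes were not matched for level, so their shares of called genes do not show whether a region at a start matters.

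The 6 called genes with a K198R-pair region at a start moved in both directions. Bcar3, an adaptor of Cas family signalling, had 104 and 72.5 normalized counts with Pax5 WT and 730 and 415 with K198R (2.65 ± 0.37, limma, adjusted p = 0.0129). Its K198R-pair region (chr3:122293728-122294080, 4.05 and 5.54) lay next to a region of all 4 lists (chr3:122292917-122293653) with 16.3 and 16 for Pax5 WT and 5.49 and 17.1 for K198R. Sgms1, a sphingomyelin synthase, had 193 and 216 against 533 and 709. Both genes were higher in every K198R library than in any wild-type one. For both, the start nearest to the summit of the K198R-pair region is that of another gene, Gm17494 for Bcar3 and 2700046G09Rik for Sgms1. Phyh, a peroxisomal hydroxylase, had 112 and 229 against 14.3 and 7.8, and its promoter region (chr2:4918972-4919369) had 5.04 and 5.03. Pogk had 550 and 670 against 111 and 40.9, and its promoter region (chr1:166409631-166409994) 5.21 and 4.08. Nhsl1 and Plpp1 were called lower as well, with log2 differences of -2.46 and -1.60. Each of these 6 calls was lost when at least 1 library was left out, all of them without WT 2, and those of Bcar3, Sgms1, Pogk, Nhsl1 and Plpp1 also without WT 1.

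Pax5 K198Q, the acetylation mimic, gave 3750 and 3957 peaks, and between 91.7% and 95.4% of them were found in any given list of K198R or Pax5 WT. A K198Q peak of either replicate was present in 66.6% of the regions of all 4 lists, in 7.71% of K198R-pair regions and in 7.16% of WT-pair regions.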

How the data were processed

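Per the labels and the study's methods, the authors crosslinked cells with DSG and formaldehyde, aligned ChIP-seq reads to mm10 with Bowtie2, filtered them on mapping quality, removed duplicates, and called peaks in each replicate over its own input with MACS2. Per peak, the values used unchanged from the deposited lists were the fold enrichment over input, a ratio at the summit, and the −log10 q-value. The shortest peak of each list was 200 bp, longer than the stated fragment extension. The RNA values are the deposited normalized counts, a signal per gene that the authors obtained with Salmon and DESeq2 scaling and from which whole reads were not recovered.

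Peaks sharing at least 1 bp were merged with bedtools 2.31.1, and each list's highest peak in a region was taken. Log2 fold enrichment and log2(normalized count + 1) were fitted with limma 3.58.1. RNA was fitted over all 8 libraries, after dropping genes that reached 10 normalized counts in fewer than 2 of them. The fits were tested on simulated data, where 16.4% of regions changed by 1 on the log2 scale and 89.6% of those changed by 2 were recovered. Sequences were read from GRCm38 and positions from GENCODE. Named regions are the 5 per class with the greatest lowest value, plus genes of 7 lists, a few of which are not reported here. The comparison, lists and rules were chosen with earlier results of these data known. The study calls the ChIP-seq replicates biological, without saying whether these cultures came from separate animals, so p-values measure only the spread between these samples. Shares carry 95% exact binomial (Clopper-Pearson) intervals. Alternatives changed the overlap, q-value limit, list length, scaling, filters and replicates.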

Additional observations from a re-analysis of the deposited data

How the results depend on the processing

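Regions with peaks in both replicates of both forms stayed within 1.5 times their number under every alternative run. K198R-pair regions numbered 1167, 694 with the 10000 peaks of highest −log10 q per list, and 1891 to 3775 with 1 list left out. WT-pair regions numbered 489, and 864 to 2013 with 1 list left out. The other overlap rules and q-value limits kept both within 1.5 times. The median log2 difference at shared regions was 0.07, -0.024 after each list was centred on its median, and -0.004 to 0.176 with 1 list left out. The share of K198R peaks that overlapped a peak of either wild-type list was 74.8% (SD 2.45, n = 2), 71% when at least 50% of the peak had to overlap, 52.6% for replicated wild-type peaks alone, 86.9% for replicated K198R peaks and 79% with 10000 peaks per list. The difference in the share of peaks with the core motif was -0.98 points, -0.40 with AGCNTGAC and -0.51 with 10000 peaks per list. That at promoters moved by less than its SD but changed sign with 1 list left out, from -1.62 to 2.65.

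Genes called higher in RNA numbered 38, 61 with the replicate block and 9 to 32 with 1 library left out. Genes called lower numbered 175, 116 without a filter on low values, 265 with the replicate block and 12 to 323 with 1 library left out. The low end came from leaving out WT 2, and where an arm is left with 1 library that library is assumed to vary like the others. In the peak lists 0 regions were called in either direction with the replicate block and under every other alternative. Same-numbered samples share only a number in the labels. The correlation of deviations between same-numbered samples was -0.022 in fold enrichment and 0.271 in RNA, over 2 pairs each. The alternatives for list-gene regions, for single named genes in RNA and for regions whose forms do not overlap were chosen after seeing the data. With 2 lists per form, no exact test over lists could pass a threshold, and the reads behind single peaks are not known here.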

Other observations

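At the Pax5 locus itself 10 regions were found and 1 of them was in all 4 lists, in an intron (chr4:44701487-44701859), with a fold enrichment of 5.87 and 4.29 for Pax5 WT and 4.47 and 7.17 for K198R. At an annotated start of the gene (chr4:44645402-44645831) WT 1, WT 2 and K198R 2 had 5.34, 2.86 and 4.23, with no peak in K198R 1. All values of the locus lay between 2.86 and 7.17.

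The immunoglobulin loci held between 2 and 11 peaks in each list. Over the 2755 kb of the heavy chain locus, WT 1, WT 2, K198R 1 and K198R 2 had 2, 6, 7 and 5 peaks, and 2 regions were in all 4 lists. Over the 3171 kb of the kappa locus they had 6, 9, 9 and 11 peaks, with 5 regions in all 4 lists, and at the lambda locus each list had 2 peaks. The order of the lists differed between loci, and no K198R-pair region was found in the heavy chain or lambda locus and 1 in the kappa locus.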
